A study of Mus musculus with 8 samples.

Results

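The 10 genes described here encode the MHC class I presentation machinery of a mouse macrophage line: 5 class I heavy chains (H2-K1, H2-D1, H2-T22, H2-T23 and H2-M3), their shared light chain B2m, the peptide transporter subunits Tap1 and Tap2, the loading factor Tapbp (tapasin) and the transcriptional activator Nlrc5. They were taken by name, and all 10 were found among the 55335 gene identifiers of the deposited table. All 10 were abundant enough to be tested. The cells were RAW264.7, which behave like macrophages and go back to a tumour of a BALB/c mouse, and their RNA was sequenced after 3 days of culture with one of 2 bone scaffold materials. One material was hydroxyapatite doped with magnesium ions (HA/Mg), the other a Trio-Active bone scaffold (TABS). Each had 4 libraries, numbered 5 to 8 in both groups. The labels name no genetic change and no further agent for either group, nor do they give the components of TABS, and no culture without a scaffold was analysed here. The labels do not say whether the 4 libraries of a group were separate cultures, so the p-values measure the spread between libraries only, and that spread may be technical. Groups follow the sample titles, and the table's H columns were read as TABS and its L columns as HA/Mg. Every direction below would turn if the letters had been exchanged.

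Class I molecules carry peptides from proteins made inside the cell to the surface, where CD8 T cells and natural killer cells read them. Peptides cut by the proteasome enter the endoplasmic reticulum through the Tap1-Tap2 transporter and are fitted by tapasin and its partners onto a heavy chain bound to beta-2-microglobulin. Macrophages express this machinery at rest and raise it strongly after interferon-gamma, through Irf1 and Nlrc5, and in part through NF-kB.

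Of the 10 genes 8 lie on mouse chromosome 17 (GRCm38), in or next to the major histocompatibility complex. There, H2-K1 (ENSMUSG00000061232) spans 33996017 to 34000347 on the minus strand and H2-D1 (ENSMUSG00000073411) 35262730 to 35267499 on the plus strand. H2-T23 (ENSMUSG00000067212) spans 36029773 to 36032855 and H2-T22 (ENSMUSG00000056116) 36037128 to 36042747, both on the minus strand. H2-M3 (ENSMUSG00000016206) lies from 37270220 to 37274484 on the plus strand. The plus strand also holds Tapbp (ENSMUSG00000024308) from 33915899 to 33929292, Tap1 (ENSMUSG00000037321) from 34187553 to 34197225 and Tap2 (ENSMUSG00000024339) from 34203527 to 34216321. B2m (ENSMUSG00000060802) is on chromosome 2 from 122147686 to 122153083 and Nlrc5 (ENSMUSG00000074151) on chromosome 8 from 94434356 to 94527272, both on the plus strand. The annotation calls all 10 protein-coding. Each value covers the whole gene.

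The promoter stretches below are shown because they carry the letters by which this gene family is known to answer NF-kB and interferon. They come from RefSeq (GRCm38.p6), which gave a promoter for 8 of the 10 genes, from 250 bases before the gene's start to 50 after it. All read 5′ to 3′ on the gene's strand. H2-Q6, a further class I heavy chain, is added because its stretch is nearly the same. Capitals mark a kappaB palindrome (GGGANTCCC, which reads the same on both strands), the interferon-response core of class I promoters (GTTTCACTT on either strand) or the general interferon-response motif (GAAANNGAA on either strand). In H2-T22 the last 2 of these overlap. The motif letters were chosen after the sequences were read. No other form of kappaB site was searched, so lower-case letters, as in the B2m stretch, do not show that such a site is absent.
H2-D1: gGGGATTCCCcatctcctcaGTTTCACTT
H2-K1: gGGGATTCCCcatctccacaGTTTCACTT
H2-Q6: gGGGATTCCCcatctccccaGTTTCACTT
H2-M3: attcccccatttcctctgagGTTTCACTT
H2-T22: agagtccctaattggcttaGTTTCACTTTC
H2-T23: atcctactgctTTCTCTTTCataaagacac
B2m: GAAACTGAAaatgggaaagtccctttgtaa

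The stretches lie at chr17:35262923-35262951 (H2-D1), chr17:34000430-34000458 (H2-K1), chr17:35424677-35424705 (H2-Q6), chr17:37270112-37270140 (H2-M3), chr17:36042924-36042953 (H2-T22), chr17:36032806-36032835 (H2-T23) and chr2:122147548-122147577 (B2m). The stretches of H2-K1, H2-T22, H2-T23 and H2-Q6 begin 111, 211, 134 and 173 bases before the gene's RefSeq start, those of H2-D1, H2-M3 and B2m 171, 122 and 139 bases before it. The gene spans given above come from another annotation (GENCODE M21), which starts H2-D1 and H2-T23 further upstream. The stretches of these 2 genes therefore lie inside the spans given above. Over their 29 bases, H2-D1, H2-K1 and H2-Q6 differed from each other at 1 position each. The palindrome was found in 210 of 27025 promoters of this length (0.777%), 4 of them of H2 genes: H2-K1, H2-D1, H2-Q6 and H2-Q7. The class I core was found in 109 (0.403%), 9 of them H2 genes: H2-K1, H2-D1, H2-Q4, H2-Q6, H2-Q7, H2-Q10, H2-T3, H2-T22 and H2-M3. The general motif was found in 2317 (8.57%), and among the members in H2-T22, H2-T23 and B2m. The promoters of Tap1 and Tapbp held none of the 3 in this window. A match is a description of letters only.

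The table gave FPKM values, in which a fragment count is divided by transcript length and by the library's mapped fragments, so levels can be compared between genes per length. The spacing of low values implied 19700000 to 23700000 fragments per library. These depths are estimates, since 30.7% to 32.1% of the low values came out whole (to 0.05 of a fragment). The search was limited to a preset range of depths, and a part of the values would come out whole by chance. The fragment numbers that follow are therefore rough. At these depths the lowest library would hold 20087 fragments of B2m, 9633 of H2-D1, 894 of H2-T22 and 313 of Nlrc5, or a counting error of 0.706%, 1.02%, 3.34% and 5.65%, which covers counting error only. Of 8 macrophage markers 7 were at 1 FPKM or more, from 5.16 to 7.08 FPKM for Ptprc to 1081 to 1595 FPKM for Lyz2, while Mertk was listed at 0 in 7 of 8 libraries. None of the 21 markers of T, B, dendritic, fibroblast, endothelial and epithelial cells reached a mean of 1 FPKM, and their largest summed level in any library was 0.560 FPKM, in B cell markers. On the first principal component of all tested genes (40.2% of the variance) HA/Mg replicate 6 lay at 2.62, on the side of the TABS libraries (5.72 to 16.5) and away from the other HA/Mg libraries (-16.4 to -12.7). Results that rest on it are therefore given with and without it.

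With TABS 9 of the 10 genes had a positive log2 change, but 1 of them, Tap1, passed the test. Tap1 and Tap2, the pair that forms the peptide transporter, stood 1.20-fold and 1.18-fold higher with TABS, B2m and H2-D1 1.11-fold higher, and H2-K1 and the activator Nlrc5 close to level (1.01-fold and 0.956-fold). Each change is the TABS mean less the HA/Mg mean on the log2(FPKM + 1) scale, on which low genes show too small a change. A gene was called at an adjusted p under 0.05 in limma with Benjamini-Hochberg adjustment over 10161 genes. Over all of these genes 18.1% were called (5.07% higher and 13.1% lower with TABS), against 1 of 10 members, which was higher. The median log2 change was 0.14 for the members and -0.04 for all genes tested, and 42.3% of all genes had a positive change. Of the 9 positive members, H2-K1 turned negative after rescaling to equal sums, and B2m with quantile normalization. In a bulk sample, fewer cells of a type and less RNA per cell cannot be told apart.

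Among all changed genes the split between directions followed the scaling. It was 515 higher and 1327 lower (28.0% higher) in the deposited values, 13.9% higher after rescaling to equal sums, 40.3% with quantile normalization and 45.5% with median-of-ratios scaling.

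**Figure D1:**
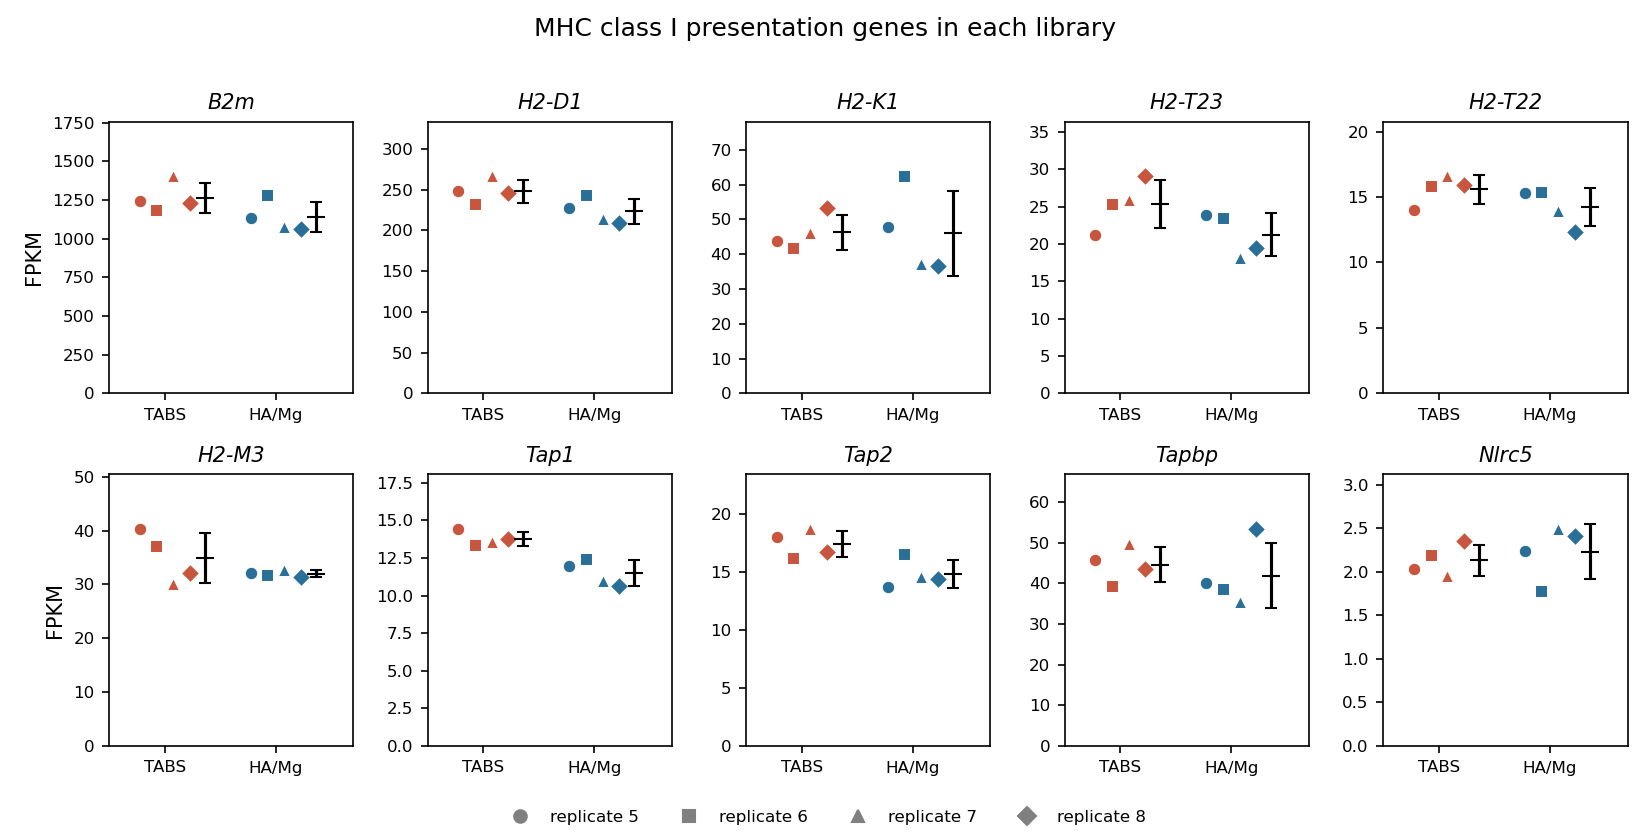
FPKM (vertical axes, from 0, one scale per gene) of the 10 genes in the 4 TABS (red) and 4 HA/Mg (blue) libraries, with marker shape for the replicate number and black bars for mean ± SD (n = 4). Tap1 is the one gene whose groups do not overlap (13.4 to 14.4 against 10.6 to 12.5 FPKM), and HA/Mg replicate 6 holds the highest H2-K1 value (62.5 FPKM).

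Tap1, the first subunit of the transporter that brings peptides into the endoplasmic reticulum, was at 14.4, 13.4, 13.5 and 13.8 FPKM in TABS replicates 5 to 8 and at 12, 12.5, 11 and 10.6 FPKM in HA/Mg replicates 5 to 8. Every TABS library lay above every HA/Mg library, which 8.05% of all tested genes also showed (23.1% in either direction). The means were 13.8 ± 0.479 against 11.5 ± 0.854 FPKM (SD, n = 4 each), and Tap1 rose by 0.24 ± 0.06 on the log2 scale (SE, limma adjusted p = 0.0245). The call ended when TABS replicate 5 (adjusted p = 0.0624) or 8 (0.0505) or HA/Mg replicate 5 (0.0589), 7 (0.0774) or 8 (0.0647) was left out. It held without TABS replicate 6 or 7 and without HA/Mg replicate 6 (0.28 ± 0.05, adjusted p = 0.00821). After trends on transcript length and GC content had been removed within each library, the change was 0.16 ± 0.06 (adjusted p = 0.104).

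Tap2, the second subunit, was at 18.0, 16.2, 18.7 and 16.7 FPKM with TABS and at 13.7, 16.6, 14.5 and 14.4 FPKM with HA/Mg. The groups overlapped through 1 library, HA/Mg replicate 6. The means were 17.4 ± 1.15 against 14.8 ± 1.23 FPKM, a log2 change of 0.22 ± 0.07 that lay just outside the threshold (adjusted p = 0.0508). Without HA/Mg replicate 6 it passed (0.27 ± 0.06, adjusted p = 0.0111), and with the length and GC trends removed it was 0.12 ± 0.06 (adjusted p = 0.256). The 2 subunits pair one to one in the transporter. The ratio of Tap2 to Tap1 was 1.26 ± 0.0811 with TABS and 1.29 ± 0.0964 with HA/Mg, ranged from 1.15 to 1.38 over the 8 libraries, and overlapped between the groups.

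Tapbp, the tapasin that holds empty class I molecules beside the transporter, was at 45.7, 39.4, 49.7 and 43.5 FPKM with TABS and at 39.9, 38.5, 35.4 and 53.4 FPKM with HA/Mg. The highest of the 8 values was HA/Mg replicate 8, the library in which 5 of the other members had their lowest value, so the groups overlapped fully. The log2 change was 0.10 ± 0.12 (adjusted p = 0.560), and without that library it was 0.22 (adjusted p = 0.110).

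B2m, the light chain that every class I heavy chain needs to reach the surface, was at 1242, 1183, 1405 and 1228 FPKM with TABS and at 1133, 1281, 1077 and 1064 FPKM with HA/Mg. HA/Mg replicate 6 lay above 3 of the 4 TABS libraries. The other HA/Mg libraries lay below all TABS libraries. The means were 1264 ± 96.7 against 1139 ± 99.6 FPKM, with a log2 change of 0.15 ± 0.08 (adjusted p = 0.185). It passed without HA/Mg replicate 6 (0.21 ± 0.07, adjusted p = 0.0398) and, unlike the other members, with the length and GC trends removed (0.23 ± 0.06, adjusted p = 0.0499).

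H2-D1, a classical heavy chain that presents peptides to CD8 T cells, was at 248, 232, 267 and 246 FPKM with TABS and at 227, 244, 213 and 209 FPKM with HA/Mg. TABS replicate 6 lay below HA/Mg replicate 6, and the other TABS libraries lay above all HA/Mg libraries. The log2 change was 0.15 ± 0.06 (248 ± 14.1 against 223 ± 15.6 FPKM, adjusted p = 0.105). It passed without HA/Mg replicate 6 (0.20 ± 0.06, adjusted p = 0.0295) and shrank to 0.03 ± 0.04 with the length and GC trends removed (adjusted p = 0.712).

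H2-K1, the other classical heavy chain of this list, whose promoter stretch differs from that of H2-D1 at 1 of 29 positions, was at 43.8, 41.7, 46.2 and 53.4 FPKM with TABS and at 47.9, 62.5, 37.2 and 36.5 FPKM with HA/Mg. The HA/Mg libraries enclosed the whole TABS range, from the lowest value of the 8 to the highest. The means were 46.3 ± 5.08 against 46.0 ± 12.2 FPKM and the log2 change 0.04 ± 0.16 (adjusted p = 0.893). Without HA/Mg replicate 6 the change was 0.19 ± 0.11 (adjusted p = 0.215), and without HA/Mg replicate 8 it was -0.06 (adjusted p = 0.824). H2-K1 had the widest spread of the 10 genes, with a highest value 1.71 times the lowest.

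The 3 non-classical heavy chains were lower and did not pass. H2-T23 encodes Qa-1, which shows leader peptides of other class I molecules to natural killer cell receptors. Its values were 21.2, 25.4, 25.8 and 29.1 FPKM with TABS and 23.9, 23.5, 18.1 and 19.5 FPKM with HA/Mg, which overlapped through TABS replicate 5. Its log2 change of 0.25 ± 0.11 was as large as that of Tap1, with a wider error (adjusted p = 0.140).

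H2-T22, a ligand of gamma-delta T cells, was at 14.0, 15.9, 16.6 and 15.9 FPKM with TABS and 15.3, 15.4, 13.9 and 12.3 FPKM with HA/Mg. The lowest TABS value again was replicate 5, and the log2 change was 0.13 ± 0.08 (adjusted p = 0.269). H2-M3, which presents formylated peptides of bacteria and mitochondria, had another pattern. It was at 40.4 and 37.1 FPKM in TABS replicates 5 and 6, at 30.1 and 32.1 FPKM in TABS replicates 7 and 8, and between 31.4 and 32.8 FPKM in all HA/Mg libraries. TABS replicates 5 and 6 were thus high and TABS replicates 7 and 8 were not, and the log2 change was 0.11 ± 0.08 (adjusted p = 0.345).

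Nlrc5, which binds class I promoters together with RFX and NF-Y factors and drives heavy chain, B2m and Tap1 transcription, was the lowest of the 10 genes and the one with a negative change. It was at 2.03, 2.19, 1.96 and 2.36 FPKM with TABS and at 2.24, 1.78, 2.50 and 2.41 FPKM with HA/Mg. The groups overlapped, and the log2 change was -0.04 ± 0.08 (adjusted p = 0.762). HA/Mg replicate 6 had the lowest Nlrc5 value of the 8 and the highest H2-K1 value. With quantile normalization the change of Nlrc5 was 0.05 (adjusted p = 0.571).

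**Figure D2:**
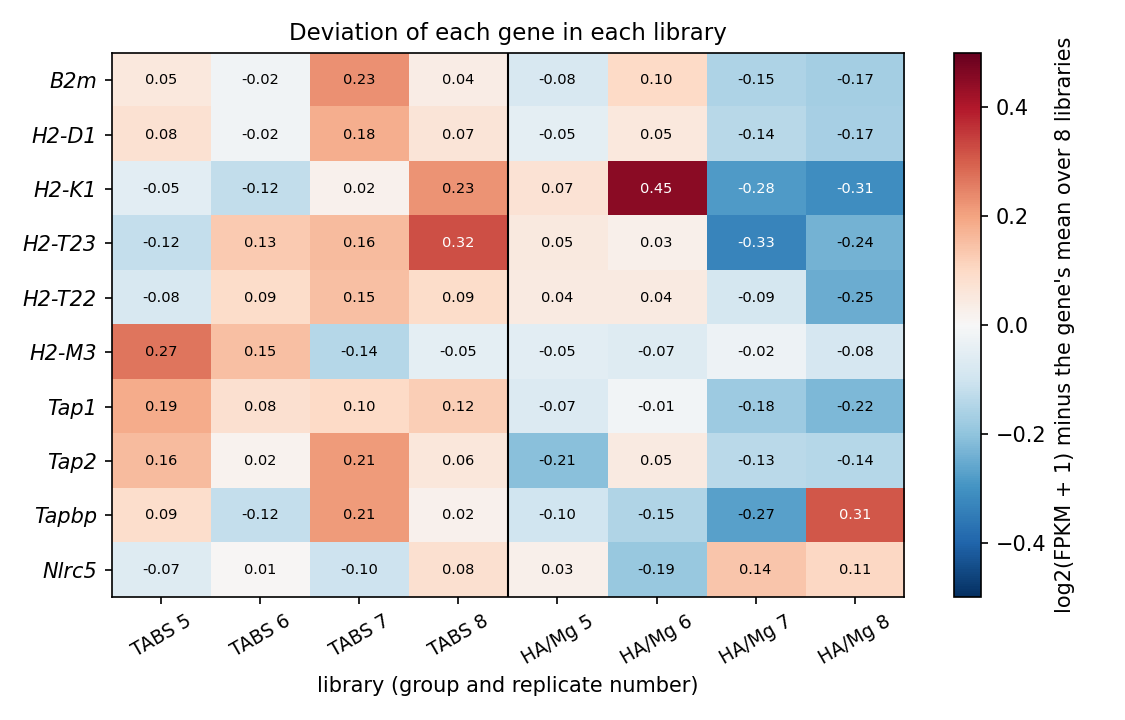
Deviation of log2(FPKM + 1) from the gene's own mean over 8 libraries (colour and printed value) for the 10 genes (rows) in each library (columns), with TABS left and HA/Mg right of the black line. HA/Mg replicates 7 and 8 are below the mean for most genes, while HA/Mg replicate 6 lies on both sides of it, up to 0.45 for H2-K1.

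Read by library, the members did not split evenly between the groups. TABS replicate 8 was above the 8-library mean for 9 of 10 genes, TABS replicate 7 for 8, and TABS replicates 5 and 6 for 6 each. HA/Mg replicate 6 was above the mean for 6 genes, HA/Mg replicate 5 for 4, HA/Mg replicate 8 for 2 and HA/Mg replicate 7 for 1. The median deviation over the 10 genes was 0.06, 0.01, 0.15 and 0.07 in TABS replicates 5 to 8 and -0.05, 0.03, -0.15 and -0.17 in HA/Mg replicates 5 to 8. HA/Mg replicate 6 thus lay above TABS replicate 6. Over all genes tested the median deviation was -0.02, -0.01, -0.05 and -0.02 in TABS replicates 5 to 8 and 0.03, -0.03, 0.04 and 0.05 in HA/Mg replicates 5 to 8. TABS replicate 7 was highest and HA/Mg replicate 8 lowest both in the members' median and on the first principal component of all tested genes (16.5 and -16.4). Whether the members' pattern differs from that of the whole table was not tested.

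In order of level per length, B2m (mean of 8 libraries 1202 FPKM, rank 31 of all genes in the table) was followed by H2-D1 (236 FPKM, rank 228), H2-K1 (46.1), Tapbp (43.2), H2-M3 (33.5), H2-T23 (23.3), Tap2 (16.1), H2-T22 (14.9), Tap1 (12.6) and Nlrc5 (2.18 FPKM, rank 8650). The ranges of neighbours did not overlap between B2m and H2-D1, H2-D1 and H2-K1, H2-M3 and H2-T23, or Tap1 and Nlrc5. The other neighbours overlapped, and H2-K1 was above Tapbp in 5 of 8 libraries. H2-D1 was 3.90 to 5.77 times H2-K1 in each library and made up 64.7% to 69.2% of the summed FPKM of the 5 heavy chains. That sum was 370.2 ± 14.2 FPKM with TABS and 337 ± 31.3 FPKM with HA/Mg. The ratio of B2m to the sum was 3.41 ± 0.164 with TABS and 3.38 ± 0.0759 with HA/Mg. It ranged from 3.26 to 3.65 over the 8 libraries, and the groups overlapped. The sum leaves out heavy chains outside the members, such as H2-Q6 (24.9 against 22.5 FPKM) and H2-T24 (20.4 against 17.7 FPKM). With the length and GC trends removed the log2 change was 0.23 for B2m, 0.03 for H2-D1 and -0.08 for H2-K1.

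Levels of single heavy chains are less certain than those of the other members. BALB/c mice carry the d haplotype of the complex, and the genome used is that of C57BL/6J, of the b haplotype, which lacks the H2-L gene of the d haplotype. The values are therefore of reads that matched b alleles, and the effect on the levels was not tested. Of the 50-base windows of the longest annotated transcript, 35.8% in H2-T22 (32.0% shared with H2-T10), 15.0% in H2-T23, 14.3% in H2-D1 and 8.11% in H2-K1 occurred unchanged in a transcript of another gene. The share was 0.576% in H2-M3, 2% or less in Tap1, Tap2 and Tapbp, and 0% in B2m and Nlrc5. In windows of a full 150-base read it was at most 1.79% (H2-D1). These windows compare annotated b-haplotype transcripts with each other, so they cannot show how reads of d alleles were assigned. Exons of H2-T22 share 29.4% of their bases with the opposite-strand gene A930015D03Rik (mean 2.67 FPKM) and those of Tap1 3.87% with Psmb9 (4.73 FPKM), also on the opposite strand. Exons of Tapbp share 24.9% with the opposite-strand gene Gm19412 (0.354 FPKM) and 4.11% with Zbtb22 on its own strand (8.02 FPKM), and those of Tap2 14.1% with the opposite-strand gene Gm15821 (0.355 FPKM). Among the called pathway genes described below, Nrd1 shares 8.87% with Osbpl9 on the opposite strand (13.0 FPKM). Whether counting used the strand is not given.

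**Figure D3:**
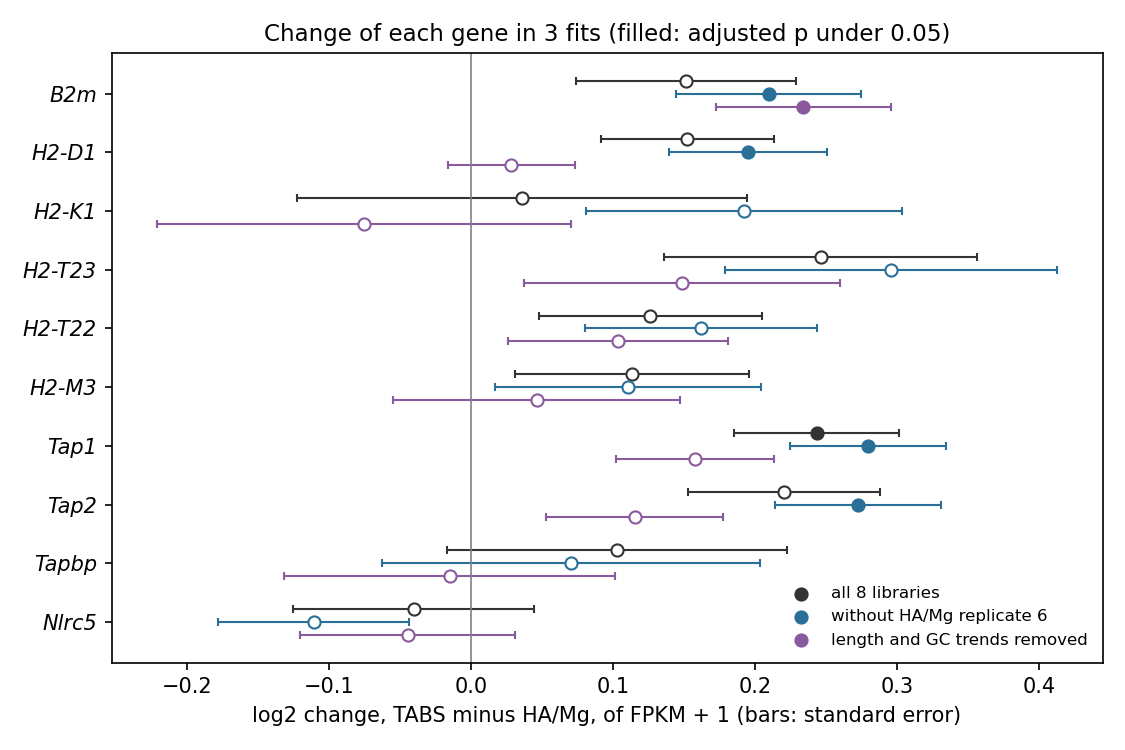
Log2 change (TABS minus HA/Mg, horizontal axis) with standard error for each gene with all 8 libraries (black), without HA/Mg replicate 6 (blue) and with length and GC trends removed (purple), filled where the adjusted p is under 0.05. Tap1 is filled with all libraries, 4 genes without HA/Mg replicate 6, and B2m alone with the trends removed.

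Leaving out HA/Mg replicate 6 raised the number of members that passed from 1 to 4: Tap1, Tap2, H2-D1 and B2m. It raised the number of changed genes in the whole table from 1842 of 10161 tested to 3309 of 10117. That library was singled out from these same values because it lay on the side of the TABS libraries. Leaving it out thus tends to widen the difference between the groups, and the added calls are no separate support. Tap2, H2-D1 and B2m each passed in only 1 of the 8 fits with a library left out. GC content moved with the comparison as well. Across 10157 genes, which do not count as replicates, the log2 change had a Spearman correlation of 0.54 with transcript GC content, and 9 of the 10 members lay above the median GC content of tested genes. Tapbp, Tap2, H2-D1 and Tap1 were at the 88.3, 87.5, 82.5 and 82.3 percentile of GC content and B2m at the 8.40 percentile. With the length and GC trends removed, the median change of the members went from 0.14 to 0.07, H2-K1 and Tapbp turned negative (-0.08 and -0.02), and B2m was the single member that passed. The summed level of the 8 macrophage markers was 2123 to 2489 FPKM with TABS and 1790 to 2227 FPKM with HA/Mg. Most of that sum came from Lyz2 (1081 to 1595 FPKM over all libraries) and Cd68 (421 to 563 FPKM), so it says little of the other markers. The part of GC content, of HA/Mg replicate 6 and of the macrophage markers in the members' changes was not tested beyond these values.

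The other genes of the pathway were read from 7 lists. Of 70 listed genes 55 were tested, and 12 passed, 6 higher and 6 lower with TABS. Over all genes tested 18.1% passed. Canx and Pdia3, 2 genes of the list of loading complex partners and trimming, were lower with TABS, in the opposite direction to Tap1. Canx, the chaperone calnexin that folds new heavy chains, was at 140.1, 141, 133 and 142 FPKM with TABS and at 179.6, 163, 175 and 169 FPKM with HA/Mg, without overlap, and fell by 0.30 ± 0.04 (139 ± 4.29 against 172 ± 7.16 FPKM, adjusted p = 0.00859). Pdia3 (ERp57), an oxidoreductase of the loading complex, was 1.18-fold lower (367 ± 19.6 against 433 ± 16.8 FPKM, adjusted p = 0.0193).

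**Figure D4:**
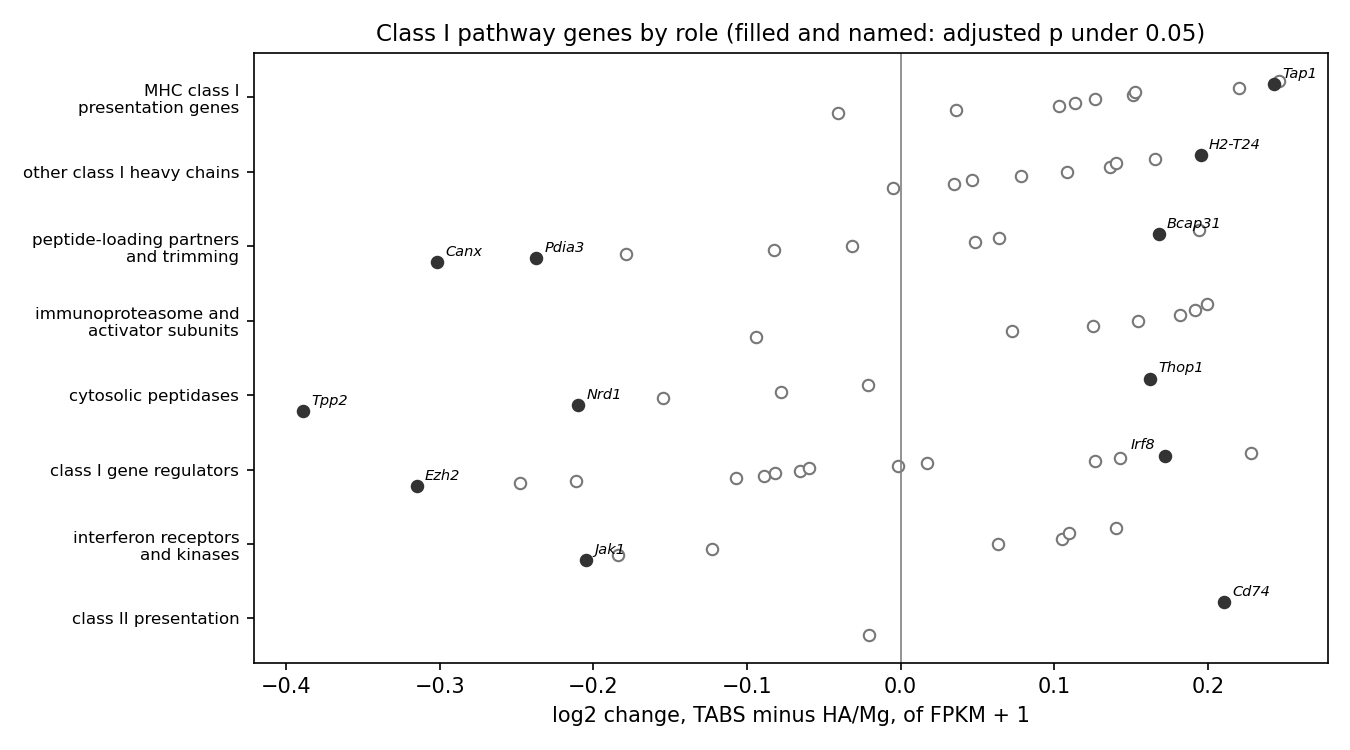
Log2 change (TABS minus HA/Mg) of tested genes of the members and the 7 pathway lists, filled and named where the adjusted p is under 0.05. Called genes lie on both sides of 0, from Tpp2 (-0.39), Ezh2 (-0.32) and Canx (-0.30) on the left to Tap1 (0.24) on the right.

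Among partners of the loading complex and peptide trimming, 1 of 9 tested genes rose, 2 fell (5.07% and 13.1% of all genes tested) and 6 did not pass. Their median log2 change was -0.03 (-0.01 with the trends removed). The gene that rose was Bcap31, an endoplasmic reticulum protein that helps class I molecules leave it (167 ± 9.12 against 149 ± 5.72 FPKM, 0.17 ± 0.05, adjusted p = 0.0475). The call of Bcap31 ended without any one of HA/Mg replicates 5, 7 and 8 or TABS replicates 6 to 8 (0.0774 to 0.116). That of Pdia3 ended without HA/Mg replicate 5 (0.0675) or 7 (0.0630), and that of Canx held without each of the 8 libraries in turn. With the length and GC trends removed Canx, whose transcript lay at the 11.7 percentile of GC content, still passed, with a smaller change of -0.15 ± 0.03 (adjusted p = 0.0254). Calr, the chaperone calreticulin, was at 677 ± 42.0 against 693 ± 47.0 FPKM (adjusted p = 0.751). Erap1, which trims peptides to class I length, was at 5.40 ± 0.719 against 6.24 ± 0.740 FPKM (adjusted p = 0.219), and Tapbpl, the tapasin relative TAPBPR, at 6.66 ± 1.18 against 5.65 ± 0.454 FPKM (adjusted p = 0.215).

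Of 9 tested class I heavy chains outside the members 1 rose (5.07% of all genes tested rose) and 8 did not pass. A positive change was found in 8 of the 9 (42.3% of all genes tested), and the median was 0.11 (0.05 with the trends removed). H2-T24 was at 19.7, 21.3, 19.1 and 21.5 FPKM with TABS and at 17.6, 16.8, 17.6 and 18.7 FPKM with HA/Mg, without overlap. It rose by 0.20 ± 0.05 (adjusted p = 0.0385), a call that ended without any one of HA/Mg replicates 5, 7 and 8 or TABS replicates 5, 6 and 8 (0.0536 to 0.0988) and with the length and GC trends removed (0.0801). H2-Q6, which shares the promoter stretch of H2-K1 and H2-D1, was at 24.9 ± 1.48 against 22.5 ± 1.21 FPKM (0.14 ± 0.06, adjusted p = 0.109, or 0.03 ± 0.05 with the trends removed).

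None of the 7 immunoproteasome and activator subunits passed in limma (2 had an unadjusted p under 0.05, Psmb10 and Psme2), 6 had a positive change, and the median was 0.15. Psmb10, a catalytic subunit of the immunoproteasome that makes class I peptides, was nearest, at 17.2, 17.4, 20.02 and 19.9 FPKM with TABS and 16.7, 16.2, 15.2 and 16.2 FPKM with HA/Mg, without overlap (0.20 ± 0.06, adjusted p = 0.0506). With the length and GC trends removed the change of Psmb10 was 0.05 ± 0.05 (adjusted p = 0.565) and the median of the list 0.06. Psme2, a subunit of the proteasome activator PA28, was at 77.3 ± 5.16 against 68.0 ± 4.22 FPKM (0.18 ± 0.06, adjusted p = 0.0639, or 0.07 ± 0.05 with the trends removed). Psmb9 lies head to head with Tap1, with 225 bases between their RefSeq starts. It was at 4.97 ± 0.297 against 4.50 ± 0.663 FPKM (adjusted p = 0.352), and the ratio of Tap1 to Psmb9 overlapped between the groups (2.78 ± 0.183 and 2.60 ± 0.385).

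The 6 cytosolic peptidases destroy or trim peptides before transport. Of them 1 rose, 2 fell (5.07% and 13.1% of all genes tested) and 3 did not pass. Tpp2, a large peptidase of the cytosol, was at 7.25, 8.03, 6.75 and 8.07 FPKM with TABS and 10.8, 9.06, 10.4 and 10.4 FPKM with HA/Mg, and fell by 0.39 ± 0.07 (adjusted p = 0.0135). Its call held without each library in turn. With the trends removed the change of Tpp2 shrank to -0.21 ± 0.05 (adjusted p = 0.0383), and its transcript lay at the 0.522 percentile of GC content. Nrd1 (nardilysin) was at 23.3 ± 0.899 against 27.1 ± 1.73 FPKM (adjusted p = 0.0315) and Thop1 (thimet oligopeptidase) at 23.4 ± 1.04 against 20.8 ± 0.359 FPKM (adjusted p = 0.0350). The call of Nrd1 ended without any one of HA/Mg replicates 5, 7 and 8 or TABS replicates 5, 7 and 8 (0.0587 to 0.0940), and that of Thop1 without any one library other than HA/Mg replicate 6 (0.0535 to 0.101). With the trends removed, the change was -0.13 for Nrd1 (adjusted p = 0.0801) and 0.03 for Thop1 (adjusted p = 0.650). Without HA/Mg replicate 6, 4 of the 6 peptidases passed, in a fit in which 3309 of all 10117 genes tested passed.

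Of 15 regulators of class I genes 2 rose, 1 fell (5.07% and 13.1% of all genes tested) and 12 did not pass. Among those that rose, Irf8, a macrophage transcription factor of the interferon regulatory factor family, was at 31.0 ± 0.982 against 27.4 ± 0.486 FPKM (0.17 ± 0.04, adjusted p = 0.0215). Ezh2, a histone methyltransferase that can silence class I genes, fell from 11.8 ± 0.586 to 9.31 ± 0.941 FPKM (-0.32 ± 0.07, adjusted p = 0.0217). These calls ended without any one of HA/Mg replicates 5, 7 and 8 or TABS replicates 6 and 7 for Irf8 (0.0504 to 0.0640) and of HA/Mg replicates 5, 7 and 8 or TABS replicate 7 for Ezh2 (0.0524 to 0.0672). With the trends removed the adjusted p was 0.0562 for Irf8 and 0.0620 for Ezh2. Irf1, a direct activator of class I and Tap1 promoters, was low at 1.58 ± 0.0883 against 1.69 ± 0.216 FPKM (adjusted p = 0.576). The RFX subunits that work with Nlrc5 stood at 2.71 against 2.97 FPKM (Rfx5), 4.09 against 4.90 FPKM (Rfxap, adjusted p = 0.0707) and 2.80 against 2.48 FPKM (Rfxank). Without HA/Mg replicate 6, Rfxap passed (-0.25 ± 0.07, adjusted p = 0.0343), and the number of regulators that passed was 5 of 15. Nfyb, a subunit of NF-Y, was also among these 5 (-0.31 ± 0.08, adjusted p = 0.0248, against 0.0805 with all libraries). In that fit 3309 of all 10117 genes tested passed, a similar share.

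Upstream, none of 4 interferon receptor subunits passed, and of the 7 tested receptors and kinases 1 fell (13.1% of all genes tested fell). Jak1, a kinase of both interferon receptors, was at 30.7 ± 0.893 against 35.6 ± 1.39 FPKM (-0.21 ± 0.04, adjusted p = 0.0170), a call that ended without HA/Mg replicate 5 (0.0610) or 7 (0.0614). With the trends removed the change of Jak1 was -0.13 ± 0.03 (adjusted p = 0.0354). The ligand Ifng was listed at 0 in all 8 libraries, and Ifnb1 at 0 in 6 of 8, at most 0.0681 FPKM.

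The class II pathway, which presents extracellular peptides to CD4 T cells, stood in contrast to class I in these cells. Of its 10 listed genes 8 were too low to be tested. H2-Aa was listed at 0 in all 8 libraries, H2-Ab1 and H2-Eb1 did not exceed 0.192 and 0.0788 FPKM, and the class II activator Ciita, a relative of Nlrc5, did not exceed 0.00927 FPKM. Cd74, the invariant chain of class II molecules, was at 689, 654, 737 and 722 FPKM with TABS and 629, 650.4, 562 and 581 FPKM with HA/Mg, without overlap, and rose by 0.21 ± 0.06 (adjusted p = 0.0458). The call ended without any one of HA/Mg replicates 5, 7 and 8 or TABS replicates 5, 7 and 8 (0.0845 to 0.129), and with the length and GC trends removed (0.06 ± 0.04, adjusted p = 0.327).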

How the data were processed

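RNA-seq of 8 RAW264.7 libraries was used, 4 per group. Per the labels' protocols, TRIzol extraction was followed by a NEBNext Ultra library and paired reads of 150 bases. Build GRCm38 and the tools fastp, STAR and DESeq2 are named, per the submitters' processing notes. Versions, annotation and the step that gave FPKM: not given in the sources used here. FPKM values were deposited by the authors for 55335 genes, and 55154 matched GENCODE M21 (GRCm38), which gave symbols, positions, lengths and GC content. Of low values of genes with 1 transcript, 42.3% to 44.4% lay below 1 implied fragment, so reads were not all counted whole and no count test was run.

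The test was limma 3.58.1 (R 4.3.3) on log2(FPKM + 1) of the 10161 genes that reached 1 FPKM in 4 libraries, two-sided, with a mean-variance trend and Benjamini-Hochberg adjustment. The steps were tested on data simulated from these libraries, with 50 genes changed at each size, fewer than passed in the data. Of genes with a true log2 change of 0.3, 42% were recovered, and 76% at 0.5. The largest change among the members was 0.25 (H2-T23), so a true change of the members' size can fail to pass. Trends on length and GC content were natural splines with 4 degrees of freedom, removed per library over 10157 genes. Alternatives were other pseudocounts (0.1, 0.5), filters (none, or a mean of at least 5 FPKM), scalings, array weights, a replicate block and each library left out.

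The members and lists were chosen with earlier results of these data known. All members are named, and of each other list the genes that passed or, where none passed, the 2 smallest p-values. The values of 1 pathway gene are not reported here. Calr, Erap1, Tapbpl, H2-Q6, Psmb9, Irf1, the RFX subunits, Nfyb, Ifng, Ifnb1 and the low class II genes were named after their values were seen.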

Additional observations from a re-analysis of the deposited data

Results flagged for a closer look

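Of 44 groups of 4 libraries examined (22 genes: the 10 members and the 12 called pathway genes), 2 held a library far from the other 3, where chance alone marks about 1 in 20 groups. Thop1 was at 24.9 FPKM in TABS replicate 7 against 22.7 to 23.1 FPKM in the other TABS libraries. Irf8 was at 26.7 FPKM in HA/Mg replicate 6 against 27.6 to 27.7 FPKM in the other HA/Mg libraries. Neither is among the 10 members.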

How the results depend on the processing

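The median log2 change of the members, 0.14 as reported, stayed positive under all 18 alternatives, from 0.07 (length and GC trends removed) to 0.19. Each move was less than 0.08, the SD between replicates of the members' median deviation. That SD is of single libraries and is wider than the error of a difference between group means. Moves inside it, such as that to 0.07, are therefore not shown to be small. The number of members that passed was 1 as reported, 0 with no filter on low values or with a replicate block, 2 with a mean of at least 5 FPKM, median-of-ratios scaling or quantile normalization, 3 with array weights, and 0 to 4 with 1 library left out. Pathway genes that passed went from 12 to 18 with array weights, 14 with a mean of at least 5 FPKM or quantile normalization, 13 with median-of-ratios scaling, 5 with no filter, 6 after rescaling to equal sums or with the length and GC trends removed, 0 with the replicate block, and 2 to 15 with 1 library left out. All changed genes went from 1842 to 808 with no filter, 3532 with array weights, 849 with the trends removed, 0 with the replicate block (smallest adjusted p 0.0589), and 414 to 3309 with 1 library left out. With no filter more genes are tested, and with a library left out fewer samples are fitted; otherwise the cause was not tested. Among the members and the called pathway genes, the changes that turned sign were those of H2-K1 (-0.013 after rescaling to equal sums, -0.075 with the trends removed, and -0.03, -0.05 and -0.061 without TABS replicate 8, HA/Mg replicate 7 or HA/Mg replicate 8), B2m (-0.038 with quantile normalization), Nlrc5 (0.051 with quantile normalization) and Tapbp (-0.015 with the trends removed), none of them called. Same-numbered libraries of the 2 groups had correlations of deviations of 0.01, -0.28, -0.16 and 0.13, and 1 of 8 libraries correlated best with its own number, so the numbers were not taken as pairs. With the replicate block in limma Tap1 had an adjusted p of 0.0827, and at an unadjusted p under 0.05 stood 2987 of all genes and 2 members.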

Other observations

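Nfya, a subunit of the NF-Y factor that works with Nlrc5 at class I promoters, was named after its values were seen. It stood at 12.6, 6.18, 6.02 and 11.9 FPKM in TABS replicates 5 to 8 and at 13.9, 12.7, 6.60 and 6.68 FPKM in HA/Mg replicates 5 to 8. Its values thus fell into a high set of 4 libraries and a low set of 4, with 2 libraries of each group in each set, and it did not pass between the groups (adjusted p = 0.824). The other NF-Y subunits did not show 2 such sets, with Nfyb from 1.76 to 3.00 FPKM and Nfyc from 4.62 to 6.32 FPKM.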
